A study of Mus musculus with 24 samples.

Results

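Activated regulatory T (aTreg) cells of old and young mice were compared in 8 bulk RNA-seq libraries, 4 from old and 4 from young animals, out of 24 libraries in the series. The genes compared were those with a value of 10 or more in at least 4 of the 8 libraries, which was the case for 14672 of the 17464 genes listed. All animals were wild type C57BL/6JRccHsd mice, young mice were 2 months old and old mice 26 months old, and no treatment was given to either group. The cells came from the spleen and were sorted as CD62L- CD44+ Treg cells. Libraries of resting Treg (rTreg, CD62L+ CD44-) and KLRG1+ Treg (kTreg) cells of both ages carry the same sample numbers, which were taken to mark 1 mouse each although the labels do not state it. These are used here only where aTreg cells are set against the other subsets and in the model of all 24 libraries. Male and female mice were used in the study, and the labels do not give the sex of an animal.

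Treg cells are CD4 T cells that restrain immune responses and depend on the transcription factor FOXP3. Resting Treg cells circulate through lymph nodes, whereas activated or effector Treg cells gain CD44 and enter tissues. Effector Treg cells can take up parts of the programmes of the T helper cells that they control, for example T-bet and CXCR3 in type 1 responses or the IL-23 receptor and CCR6 in type 17 responses. Expression is given below as the normalised read count, which is the number of reads of a gene divided by 1 size factor per library. Fold changes are on the scale of log2(value + 1), as old minus young with the standard error (SE), and the added 1 makes the change of rarely read genes look smaller than it was. A gene was called higher or lower in old aTreg cells when its adjusted p from limma was below 0.05 and its fold change was above 1.5.

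The libraries held between 15267276 and 25154160 reads in listed genes. The old library 2 stood apart. Its Foxp3 value was 5079, against 16925, 18346 and 19813 in the old libraries 1, 3 and 4 and 20351, 24068, 24857 and 25465 in the young libraries. In the same library a single gene, Trbv4, took 48.2% of the reads of all T cell receptor beta V genes and Trav10 took 36.8% of those of the alpha V genes. It was also the most extreme of the old libraries in 56.2% of the genes called higher and 71.3% of those called lower, against 35.2% and 41.2% of all tested genes. Among the young libraries, number 2 held more RNA of other cell types. The markers of B cells summed to 13020 there and to at most 1758 in the other young libraries, those of macrophages and monocytes to 5072, and those of dendritic cells to 47366. Cd4 was between 11854 and 16985 in each of the 8 libraries. The defining B cell gene Ms4a1 and the CD8 T cell gene Cd8a did not reach the minimum value for testing. The main counts below are therefore also given without old library 2.

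In old aTreg cells 548 genes were higher (3.74% of the genes tested) and 289 were lower (1.97%), together 837 genes (5.70%). The median log2 fold change of all genes was 0.01. Counts of called genes in the lists below are to be read beside these shares, and no list was tested for an excess. Among the higher genes 499 were protein coding and 29 were long noncoding RNAs, and 231 changed by more than 4-fold. Among the lower genes 260 were protein coding, and 74 changed by more than 4-fold. The old and young libraries did not overlap in 525 of the higher and 285 of the lower genes, while over all tested genes old libraries lay entirely above young ones in 8.22% and entirely below in 6.22%. Without old library 2, 557 genes were higher (3.80%) and 252 were lower (1.72%). Of these, 461 and 223 were also called with all libraries. The call of 442 of the 837 genes held when any 1 of the 8 libraries was left out. Leaving out old library 1 gave the fewest genes, 328 higher and 160 lower, and 171 and 182 lower genes were left without young library 4 or 3. With the spread estimated from all 24 libraries of the series instead of these 8, 305 genes were higher and 142 lower. Where the call of a gene described below was lost in that 24-library model, its adjusted p there is given in the same paragraph or where the gene is first described. As these are bulk samples, a larger share of cells that express a gene and more RNA per cell cannot be told apart in any of the values below.

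**Figure D1:**
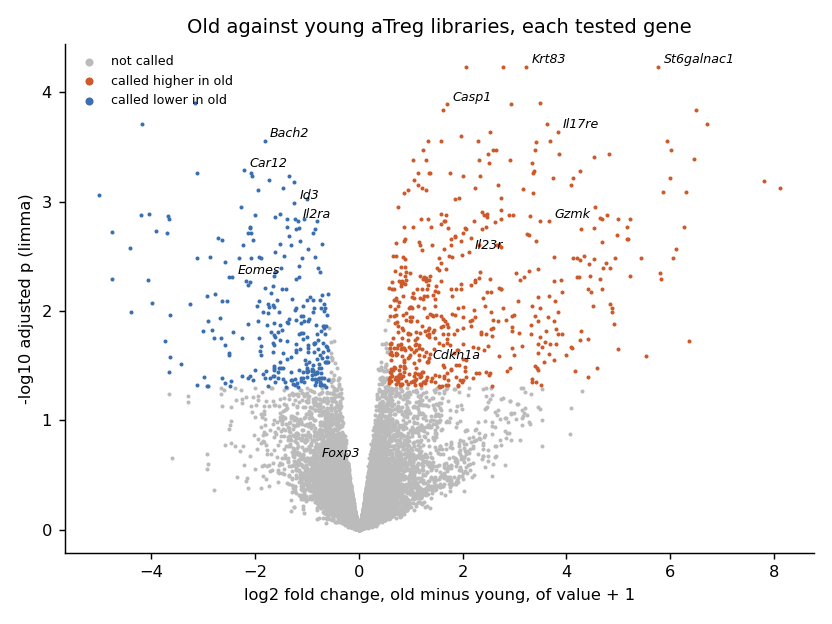
Each point is 1 of the 14672 tested genes, with the log2 fold change (old minus young, of value + 1) on the horizontal axis and -log10 of the limma adjusted p on the vertical axis. The 548 genes called higher in old aTreg cells are orange, the 289 called lower are blue, Bach2 stands at -1.81 on the left, and Foxp3 lies among the genes not called.

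The genes with the smallest p among those higher in old aTreg cells came from several families. Krt83, a hair keratin gene at chr15:101383011-101389395 (GRCm39), was 149, 148, 228 and 191 in the young libraries 1 to 4 and 2060, 1740, 1609 and 1296 in the old ones. Its lowest old value was far above its highest young value, and its log2 fold change was 3.22 ± 0.19 (SE), with an adjusted p of 5.9e-05. St6galnac1, which encodes a sialyltransferase of O-linked glycans, rose from between 8.66 and 19.4 in young to between 536 and 1711 in old libraries (5.77 ± 0.38, adjusted p = 5.9e-05). The old library 1 held the highest value, and the groups were far apart. Casp1, the inflammasome protease that matures IL-1β and IL-18, was 1768, 1419, 1381 and 1160 in young and 4719, 4935, 4320 and 4553 in old libraries. The old values of Casp1 lay close to each other and all above the young values (1.71 ± 0.13, adjusted p = 0.00013). Slc27a6, a fatty acid transport protein gene, was similarly even among old mice, with 304, 321, 323 and 312 against 32.3, 37.1, 25.7 and 17.3 in young mice (3.49 ± 0.26, adjusted p = 0.00013). In the 24-library model its adjusted p was 0.058. Susd2 (1.63 ± 0.13), Bspry (1.96 ± 0.17) and Prss12, which encodes the protease neurotrypsin (3.62 ± 0.31), were also higher. Genes named for the smallest p, here and below, were taken only where the groups did not overlap.

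Inhibitory and lipid mediator receptors were among the same genes. Lilrb4a and Lilrb4b lie next to each other on chromosome 10 and encode immunoglobulin-like receptors with inhibitory motifs. Lilrb4b was 296, 502, 265 and 312 in young and 2197, 2307, 2472 and 2133 in old libraries, and Lilrb4a went from between 329 and 511 to between 1407 and 2680. Both groups of values were separate, with log2 fold changes of 2.77 ± 0.19 and 2.52 ± 0.22. The genes are near-identical copies, so that the counting may have split reads between them. Both receptors for cysteinyl leukotrienes rose, Cysltr1 from between 196 and 239 to between 829 and 1840 (2.51 ± 0.26) and Cysltr2 from between 288 and 404 to between 925 and 1108 (1.58 ± 0.14). The CD200 receptor gene Cd200r1 rose by 0.72 ± 0.13 and its activating relative Cd200r4 by 3.34 ± 0.34, whereas Cd200, which encodes the ligand of CD200R1, was lower in old cells (-1.0 ± 0.21, 3363, 2648, 2978 and 2747 in young and 1473, 944, 1567 and 2113 in old libraries, adjusted p = 0.017). The call of Cd200 was lost without young library 3 or old library 1, with adjusted p up to 0.055, and that of Cysltr1 in the 24-library model (adjusted p = 0.34). The other genes of this and the preceding paragraph stayed called whichever 1 of the 8 libraries was left out.

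Several receptors and factors of the type 17 programme rose with age. RORα, encoded by Rora, is a nuclear receptor that takes part in this programme, and it binds the core motif AGGTCA. The promoters of Il23r and Ccr6, the cytokine and the chemokine receptor of the programme that rose, are shown here because each holds this motif, together with that of Apol7e, one of the genes with the smallest p, which holds 2. They are taken from RefSeq (GRCm38.p6 table) and were matched exactly to GRCm39, with annotated exons cut off. Il23r lies on the reverse strand (chr6:67468889-67469089), and Ccr6 (chr17:8454625-8454868) and Apol7e (chr15:77582839-77583056) on the forward strand. The table holds another promoter of Ccr6 (chr17:8461108-8461325), in which no match was found and which is not shown. Capitals mark AGGTCA or, on the other strand, TGACCT.
Il23r: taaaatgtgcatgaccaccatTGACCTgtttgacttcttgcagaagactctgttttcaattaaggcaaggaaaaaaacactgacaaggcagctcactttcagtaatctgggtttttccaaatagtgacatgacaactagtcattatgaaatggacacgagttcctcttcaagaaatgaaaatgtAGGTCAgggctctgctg
Ccr6: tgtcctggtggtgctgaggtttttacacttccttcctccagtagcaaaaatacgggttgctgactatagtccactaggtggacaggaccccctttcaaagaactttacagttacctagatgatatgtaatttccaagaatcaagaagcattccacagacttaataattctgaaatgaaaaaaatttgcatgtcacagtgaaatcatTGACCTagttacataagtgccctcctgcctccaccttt
Apol7e: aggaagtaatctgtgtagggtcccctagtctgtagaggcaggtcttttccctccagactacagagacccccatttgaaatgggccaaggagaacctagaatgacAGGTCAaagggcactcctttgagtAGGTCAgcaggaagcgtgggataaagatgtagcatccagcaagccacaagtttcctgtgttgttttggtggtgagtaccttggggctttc
The matches begin 229 and 66 bases before the start in Il23r, 44 bases before it in Ccr6 and 146 and 122 bases before it in Apol7e. In the 250 bases before the start, 1 or more matches were found in 15.8% of all 27025 genes with a promoter in the table and in 13% of the tested genes. The share was 14.2% of the genes called higher and 15.9% of those called lower. Of the type 17 genes, a list put together after the values were seen, 4 of the 13 with an entry held a match. A match is a sequence feature only, and binding was not measured.

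Il23r, the receptor subunit for IL-23, was 153, 194, 166 and 138 in young libraries and 600, 1519, 578 and 479 in old ones. The old values were all above the young ones, with old library 2 highest, and the log2 fold change was 2.13 ± 0.32 (adjusted p = 0.0029) and 1.76 without old library 2. In the 24-library model Il23r was not called (adjusted p = 0.59). Ccr6, the receptor for CCL20, was 1341, 936, 1010 and 1032 in young and 3510, 6807, 2731 and 1813 in old libraries. It did not overlap between groups either (1.62 ± 0.32, adjusted p = 0.014, and 1.28 without old library 2). The largest rise of these genes was that of Il17re, the receptor chain for IL-17C, from 153, 361, 216 and 202 to 3398, 5502, 3053 and 1745 (3.83 ± 0.34, adjusted p = 0.00023). Tmem176a and Tmem176b, neighbouring genes for membrane proteins that are abundant in type 17 lymphocytes, reached the highest levels. Tmem176a was between 834 and 1465 in young and between 7655 and 27429 in old libraries, and Tmem176b between 1056 and 2492 and between 9614 and 26730. Their log2 fold changes were 3.69 ± 0.33 and 3.41 ± 0.32 and stayed at 3.34 and 3.14 without old library 2. Rora was 2337, 2261, 2034 and 1951 in young and 4516, 5303, 4265 and 3948 in old libraries, with little spread (1.07 ± 0.12, adjusted p = 0.00063). In young kTreg libraries Rora was already between 4761 and 5357, whereas Il23r and Il17re were at most 109 and 79.4 there. In old kTreg libraries Il23r was between 138 and 249 and Il17re between 247 and 966. In the 24-library model the age change of Il17re was 6.28 in kTreg cells (limma adjusted p = 0.0016) and 3.86 in rTreg cells (adjusted p = 0.02). Il23r was called in neither subset (adjusted p = 0.2 and 0.91). Il17a itself was low, between 0 and 13.4 in young and between 46.5 and 88.9 in old libraries, and rose (adjusted p = 0.021), though its call was lost when any of 3 libraries was left out and its log2 fold change fell from 3.53 to 2.72 without young library 2. Its adjusted p in the 24-library model was 0.0504. Il17f was not called, with values from 17.7 to 126 in young and from 62.7 to 191 in old libraries.

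**Figure D2:**
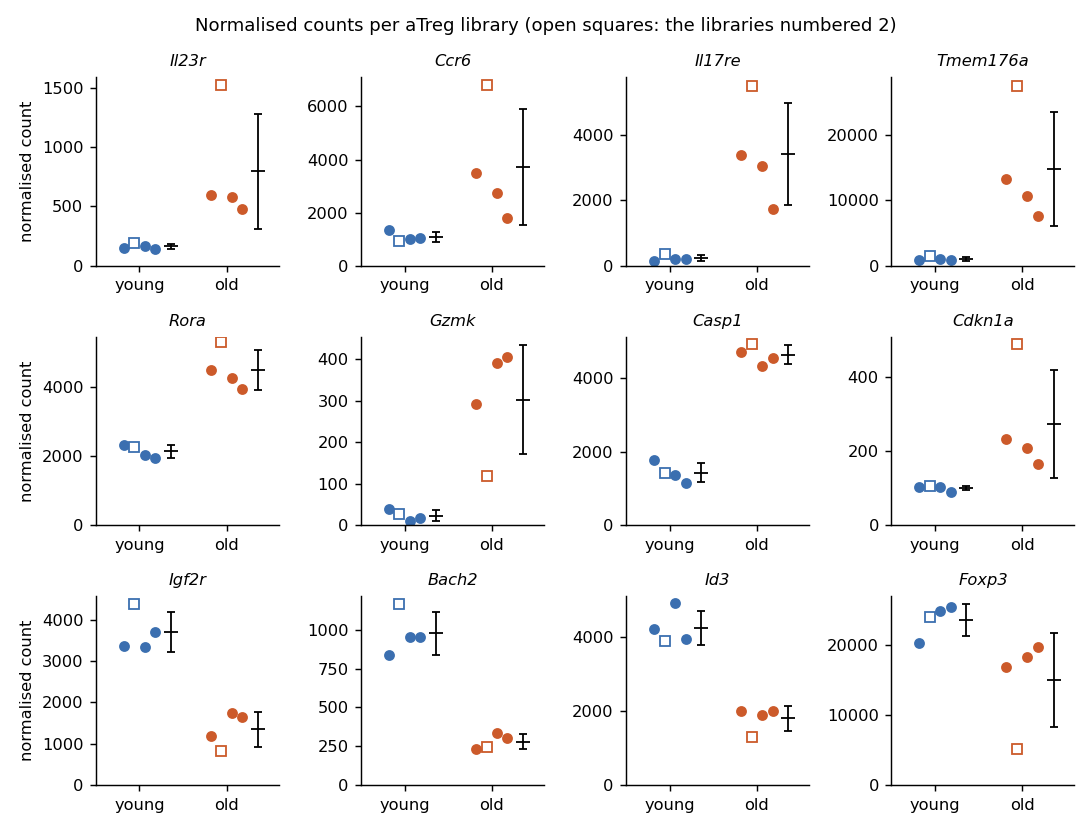
Normalised counts of 12 genes in the 4 young (blue) and 4 old (orange) aTreg libraries, with the libraries numbered 2 as open squares and the mean with its SD in black at the right of each group. Il23r, Ccr6, Il17re, Tmem176a, Rora, Gzmk, Casp1 and Cdkn1a are higher and Igf2r, Bach2 and Id3 lower in every old library, and the open square of old library 2 is the lowest point for Foxp3 and the highest for Il23r, Ccr6, Il17re, Tmem176a and Rora.

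Of the 16 type 17 genes tested, 8 were called higher and none lower, with a median log2 fold change of 1.21, and 7 were higher without old library 2, with a median of 1.01. This list was put together after the values had been seen, and leaving out 1 library gave from 6 to 10 higher members. Its member Aqp3, a water and glycerol channel gene, lost its call without any of 7 libraries and in the 24-library model (adjusted p = 0.14). In the wider list of T helper lineage factors and receptors, 6 of 20 were higher and none lower, with a median of 0.88 and, without old library 2, 9 higher and 1 lower with a median of 0.78. Apart from Rora, Il23r and Ccr6, the higher members were Cxcr3 and the IL-18 receptor chains Il18r1 and Il18rap. Cxcr3, the chemokine receptor of type 1 responses, was 5638, 3676, 5973 and 5102 in young and 13408, 10643, 11181 and 15559 in old libraries (1.32 ± 0.17, adjusted p = 0.0014). Il18r1 rose by 1.65 ± 0.22 and Il18rap by 1.09 ± 0.24, the latter losing its call when any of 3 libraries was left out and in the 24-library model (adjusted p = 0.058). Tbx21, which encodes T-bet, was between 732 and 975 in young libraries and 1922, 810, 1476 and 2034 in old ones. It was not called with all libraries (adjusted p = 0.087) but was higher without old library 2 (1.13, adjusted p = 0.0019). Gata3, the type 2 factor, was between 2647 and 3146 in young and between 3593 and 4919 in old libraries, without overlap, yet its log2 fold change of 0.50 was below the 1.5-fold threshold. The type 1 receptor chain Il12rb2 and the type 2 receptor Il4ra were not called with all libraries (adjusted p = 0.22 and 0.057).

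Markers of conventional CD4 T cells moved together with these genes. Of 9 tested, 4 were higher and none lower, namely Il7r, Themis, Cd40lg and Il4, and these 4 calls held without any 1 library, while Il4 was not called in the 24-library model (adjusted p = 0.47). Their summed level was between 33305 and 38823 in young and between 49159 and 75833 in old libraries, with old library 2 highest. Il7r, the IL-7 receptor chain, was 4365, 6222, 4888 and 4884 in young and 20332, 28423, 14793 and 12889 in old libraries (1.85 ± 0.22, adjusted p = 0.00095). It was also high in kTreg libraries, between 7544 and 10127 in young and between 10897 and 17294 in old mice. Themis and Il4 were between 408 and 641 and between 0 and 26.8 in young kTreg libraries, and between 738 and 1251 and between 68.1 and 128 in old ones. In the 24-library model the age change in kTreg cells was 3.47 for Il4 (limma adjusted p = 0.024) and 0.81 for Themis (adjusted p = 0.097). Cd40lg, the CD40 ligand of helper T cells, rose from between 1308 and 2132 to between 3325 and 6568 (1.29 ± 0.21). Whether these genes and the type 17 genes come from the same cells, and what part other CD4 T cells had in the results, was not tested.

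Cytotoxic genes rose in part. Of 21 tested, 9 were higher and 2 lower, with a median log2 fold change of 1.05, and 10 and 1 without old library 2. Leaving out young library 4 or old library 1 left 5 higher. Gzmk, a granzyme, was 39.0, 27.4, 9.65 and 17.3 in young and 293, 120, 390 and 405 in old libraries, and old library 2 was the lowest of the old ones (3.66 ± 0.48, adjusted p = 0.0015, and 0.059 in the 24-library model). Ctsw, the cathepsin of cytotoxic lymphocytes, went from between 3887 and 4690 to between 8415 and 10313 (1.05 ± 0.11, adjusted p = 0.00042). Klrk1, which encodes the activating receptor NKG2D, went from between 289 and 438 to between 1149 and 3569 (2.45 ± 0.33), although not in the 24-library model (adjusted p = 0.32). Ccl5, the chemokine RANTES, went from between 357 and 662 to between 1183 and 2383 (1.86 ± 0.26). Runx3, a factor of cytotoxic lineages, rose by 0.86 ± 0.15. The calls of Fasl, Klrd1, Nkg7 and Klrc1 were each lost when any of several libraries was left out, with adjusted p up to 0.091, 0.11, 0.12 and 0.11. In the 24-library model these were not called (adjusted p = 0.84, 0.47, 0.056 and 0.41), nor was Runx3 (adjusted p = 0.1). Eomes, a T-box factor of cytotoxic and memory cells, went the other way, from 244, 228, 218 and 306 in young to 51.8, 17.6, 81.8 and 52.1 in old libraries (-2.44 ± 0.40, adjusted p = 0.0049, and 0.09 in the 24-library model). Gzmc, a granzyme, was the other lower member and lost its call without any of 7 libraries and in the 24-library model (adjusted p = 0.12). Gzmb was not called (adjusted p = 0.11), with values from 463 to 799 in young and from 102 to 637 in old libraries. The CD8 T cell marker list summed to between 2308 and 3634 in young and between 3211 and 7268 in old libraries, and that of NK cells to between 1454 and 2465 and between 2263 and 4651. Of the CD8 T cell markers 3 of 7 were higher (Gzmk, Nkg7 and Klrc1) and 1 lower (Eomes), and of the NK cell markers 1 of 10 was higher (Klrk1) and 2 lower (Eomes and Fcer1g). Among their members Cd8b1, a chain of the CD8 co-receptor, was between 327 and 806 in young and between 169 and 265 in old libraries, and the NK receptor gene Ncr1 was between 30.1 and 123 and between 0 and 22.1. Neither was called (adjusted p = 0.058 and 0.06), and the part of such cells in these values was not tested.

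Genes of the resting state were lower in 11 and higher in 1, Il7r, of 24 tested, and both counts were the same without old library 2. The median log2 fold change of the list was -0.43, and -0.65 without that library. Bach2, a repressor that restrains effector differentiation, was 838, 1170, 955 and 956 in young and 231, 247, 336 and 305 in old libraries (-1.81 ± 0.17, adjusted p = 0.00028). Id3, an inhibitor of E proteins that maintains Treg cells, was between 3905 and 4934 in young and 2004, 1311, 1908 and 2001 in old libraries (-1.25 ± 0.15, adjusted p = 0.001).

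Further members that fell are given here after their values were seen. Lef1, a Wnt pathway factor of naive T cells, was between 2900 and 3700 in young and between 1869 and 2022 in old libraries (-0.81 ± 0.11), and the forkhead factor Foxp1 between 5013 and 5175 and between 2875 and 3648 (-0.71 ± 0.10). Sox4 was 105, 125, 64.3 and 32.9 in young libraries and at most 6.51 in any old one (-4.19 ± 0.53). Igfbp4 (-2.63 ± 0.37), Actn1 (-2.13 ± 0.29), Dapl1 (-3.65 ± 0.48), Myb (-1.65 ± 0.35) and the lymph node homing receptor Ccr7 (-0.89 ± 0.17) were lower as well. The call of Myb was lost without young library 2 or old library 1, and that of Ccr7 in the 24-library model (adjusted p = 0.11). Other genes of the same list did not pass the test. Tcf7, which encodes TCF1, was between 13122 and 15329 in young and between 14652 and 24003 in old libraries. Klf2 (adjusted p = 0.38) and S1pr1 (adjusted p = 0.81), which serve the exit from lymphoid organs, overlapped between the groups.

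Further genes with the smallest p among the lower ones act in metabolism and signalling. Il6ra, the IL-6 receptor chain, was 955, 1100, 1018 and 1039 in young and 276, 470, 412 and 360 in old libraries (-1.46 ± 0.17, adjusted p = 0.00075). Shmt1, an enzyme of one-carbon metabolism, was 945, 703, 1027 and 870 and then 294, 192, 270 and 325 (-1.72 ± 0.19). Slc16a1, the lactate and pyruvate transporter MCT1, fell with little spread, from between 1118 and 1380 to between 579 and 670 (-0.99 ± 0.12, adjusted p = 0.00095, and 0.078 in the 24-library model). The carbonic anhydrases Car12 (-2.21 ± 0.23) and Car11 (-1.93 ± 0.22), the nucleotide sugar transporter Slc35d1 (-1.33 ± 0.15) and the kinase Sgk3 (-2.06 ± 0.23) fell as well, as did Cdca7 (-1.24 ± 0.14), Lad1 (-3.11 ± 0.33), Itm2a (-2.08 ± 0.22) and Plagl1 (-2.28 ± 0.28). In the 24-library model Car12 and Plagl1 were not called (adjusted p = 0.3 and 0.57). Ntn4, a netrin, was between 34.6 and 69.3 in young libraries and 0, 3.10, 0.787 and 0 in old ones. Both amino acid transporters called, Slc7a5 (-1.38 ± 0.18), the large neutral transporter, and Slc43a1 (-1.92 ± 0.35, with an adjusted p of 0.45 in the 24-library model), were lower, out of 26 tested. The purine list held 2 lower genes of 14, the nucleoside transporter Slc29a1 (-0.79 ± 0.12) and adenosine kinase Adk (-0.87 ± 0.16).

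The identity genes of Treg cells were lower in 3 and higher in none of 18 tested, with a median log2 fold change of -0.37. Il2ra, the gene of the sort marker CD25, was 8388, 9925, 7549 and 9843 in young and 4558, 2901, 4280 and 4159 in old libraries (-1.18 ± 0.16, adjusted p = 0.0015). Lrrc32, which encodes GARP, the surface anchor of latent TGF-β, was between 4399 and 7542 in young and 1493, 351, 1424 and 1428 in old libraries (-2.51 ± 0.41, adjusted p = 0.0049). Gpr83, an orphan receptor of Treg cells, was between 4178 and 5241 and then 1474, 481, 1406 and 1516 (-2.07 ± 0.32, adjusted p = 0.0033). All 3 were lowest in old library 2, and without it their log2 fold changes were -1.03, -2.0 and -1.67 and the calls remained. Foxp3 was lower in every old than in every young library, but was not called (-0.83 ± 0.36, adjusted p = 0.23). Without old library 2 its log2 fold change was -0.36 (adjusted p = 0.087) and the median of the list was -0.13. As that library was set apart by its low Foxp3, a smaller change of Foxp3 without it follows from the choice. The values of Treg identity genes without it are therefore no separate check. Ctla4, the inhibitory receptor, was 11947, 10431, 13058 and 12617 in young and 6765, 3128, 8321 and 8745 in old libraries. It was not called with all libraries (adjusted p = 0.075) and passed without old library 2 (-0.60, adjusted p = 0.015). Ikzf2, which encodes Helios (adjusted p = 0.37), Nrp1 (adjusted p = 0.65) and Tnfrsf18, which encodes GITR (adjusted p = 0.76), overlapped between the groups. Of the 5 sorting markers 1 was higher and 2, Il2ra among them, were lower, and both lower calls held when any 1 library was left out. Cd44 was higher in old cells (0.67 ± 0.14, adjusted p = 0.018), a call that was lost without any of 3 libraries, and Cd4 and Klrg1 were not called (adjusted p = 0.5 and 0.15).

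Mediators of suppression showed no common direction. Of 14 tested, Areg, the tissue repair ligand amphiregulin, was higher and none was lower. Areg was 131, 36.3, 96.5 and 27.7 in young and 238, 179, 242 and 344 in old libraries (2.01 ± 0.46, adjusted p = 0.027), and its call was lost when any of 5 libraries was left out and in the 24-library model (adjusted p = 0.14). Il10 was 254, 261, 446 and 336 in young and 176, 81.6, 187 and 204 in old libraries, which did not overlap but missed the threshold (adjusted p = 0.076). Without old library 2 there were 4 higher members and 1 lower, the higher ones including Fgl2, which encodes a secreted suppressive ligand (1.37, adjusted p = 0.0049), and Prdm1, which encodes BLIMP1 (0.82, adjusted p = 0.019). Icos and Cd274, which encodes PD-L1, had log2 fold changes of 0.07 and -0.02.

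**Figure D3:**
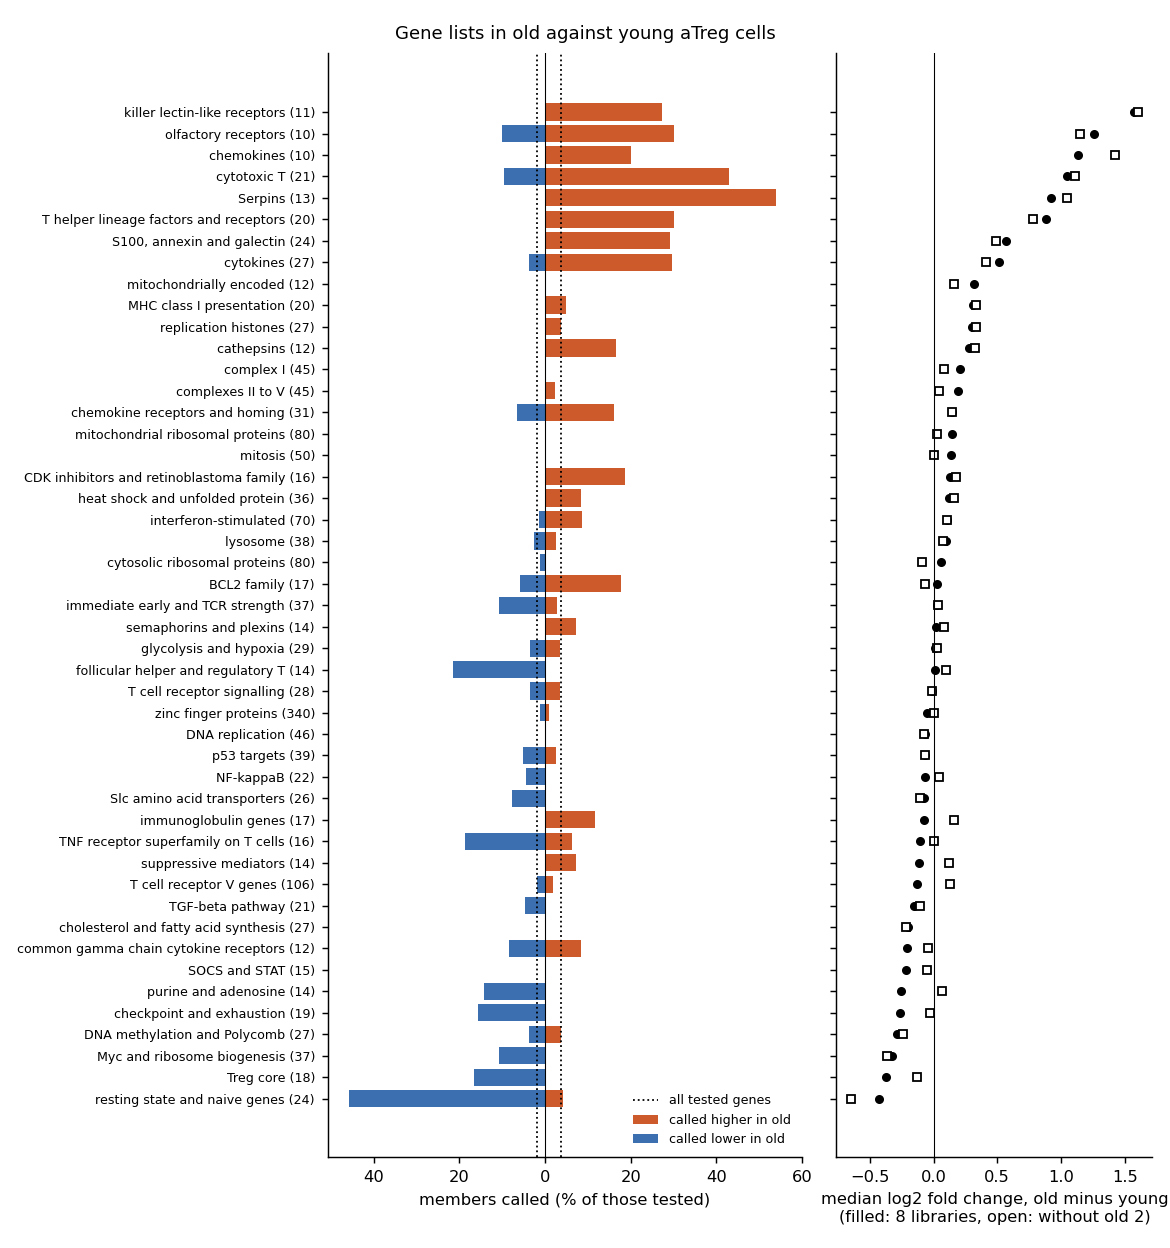
Gene lists with 10 or more tested members (number in brackets), ordered by median log2 fold change. The left panel shows the share of members called higher (orange) or lower (blue) in old aTreg cells, with the share over all tested genes as dotted lines, and the right panel the median log2 fold change with all 8 libraries (filled) and without old library 2 (open). The highest medians are those of killer lectin-like receptors (1.58), olfactory receptors (1.26) and chemokines (1.14). Cytotoxic genes, serpins, T helper lineage genes, the S100, annexin and galectin list and cytokines follow in this order. Resting state genes have the lowest median, while DNA replication, mitosis, complex I and mitochondrial ribosomal proteins hold no called gene.

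Cytokine genes were higher in 8 and lower in 1 of 27 tested, with a median log2 fold change of 0.51. The higher members with the smallest p were Tnfsf8, the CD30 ligand (0.89 ± 0.14), Il4 (1.43 ± 0.25), Tnfsf14, which encodes LIGHT (1.01 ± 0.19), and Il17a. Tnfsf8 was 2616, 1778, 2019 and 2048 in young and 3683, 4540, 3488 and 3934 in old libraries. Il4, the type 2 cytokine, was between 51.6 and 81.3 in young and 151, 196, 153 and 252 in old libraries (adjusted p = 0.0071). Neither gene overlapped between the groups. In the 24-library model Tnfsf8, Il4 and Tnfsf14 were not called (adjusted p = 0.17, 0.47 and 0.16). The calls of Csf2, Spp1 and Il15 were lost in 6 of the 8 comparisons with 1 library left out, as was that of Areg in 5, and in the 24-library model Csf2, Spp1 and Il15 had adjusted p of 0.48, 0.32 and 0.27. Without young library 4 or old library 1 only 3 cytokine genes were higher. Lta, lymphotoxin alpha, was lower (-0.75 ± 0.12, adjusted p = 0.0044). The receptor of the CD30 ligand, Tnfrsf8, was lower in old cells, from 471, 784, 393 and 456 to 159, 81.6, 286 and 242 (-1.54 ± 0.37, adjusted p = 0.033), although its call was lost when any of 5 libraries was left out and in the 24-library model (adjusted p = 0.093).

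Among 31 genes of chemokine receptors and homing, 5 were higher and 2, Ccr7 among them, lower, with a median log2 fold change of 0.15, and without old library 2 the counts were 9 and 2. Leaving out young library 2 or old library 1 left 3 higher. Cxcr6, a receptor of tissue-resident and effector T cells, was 5334, 3169, 8120 and 5958 in young and 28941, 32064, 20659 and 21000 in old libraries (2.24 ± 0.26, adjusted p = 0.00075). Its old values were all far above the young ones. Besides Ccr6 and Cxcr3, the higher members were Itgb7, the β7 integrin chain of gut homing (0.83 ± 0.18), and Ccr2, the receptor of inflammatory monocyte chemokines (1.33 ± 0.31), whose calls were lost without any of 5 and 4 libraries. Ccr2 was not called in the 24-library model either (adjusted p = 0.064). Of 10 chemokine genes 2 were higher, Ccl5 and the neutrophil attractant Cxcl3, which was between 5.63 and 15.6 in young and between 27.9 and 133 in old libraries. The call of Cxcl3 was lost without any of 5 libraries and in the 24-library model (adjusted p = 0.16).

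Some calcium-binding and membrane-binding genes of effector T cells rose. Of 24 genes of the S100, annexin and galectin list, 7 were higher and none lower, with a median log2 fold change of 0.57. S100a4 was 2185, 1778, 2328 and 1562 in young and 7506, 16946, 5417 and 4128 in old libraries (1.91 ± 0.35, adjusted p = 0.0093), and S100a6 between 1444 and 2303 and then 10219, 27804, 5944 and 5483 (2.46 ± 0.43). Anxa1, an anti-inflammatory annexin, was between 209 and 527 and then 1761, 3903, 1148 and 783 (2.42 ± 0.44), and Anxa2 rose by 1.41 ± 0.20. Old library 2 held the highest value of each, and without it the log2 fold changes were 1.51, 1.96, 1.99 and 1.23. The other higher members were S100a11, Anxa5 and Vim, and leaving out young library 4 left 5 of the 7. Serpins, inhibitors of serine proteases, were higher in 7 and lower in none of 13, with a median of 0.92. Serpinb1a, an inhibitor of neutrophil proteases, was 475, 1235, 674 and 569 in young and 4113, 10170, 3538 and 2694 in old libraries (2.70 ± 0.39, adjusted p = 0.0025). Serpinb9, the inhibitor of granzyme B, was 926, 697, 903 and 933 and then 1532, 1395, 1642 and 1494, an even rise in all old libraries (0.82 ± 0.13, adjusted p = 0.004). Serpinf1 (2.34 ± 0.37) and Serpina3f (1.85 ± 0.35) also rose, Serpinb9 and Serpinf1 were not called in the 24-library model (adjusted p = 0.2 and 0.27), and between 5 and 8 members were higher when 1 library was left out.

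Of 70 interferon-stimulated genes tested, 6 were higher and 1 lower, beside 3.74% and 1.97% of all tested genes, with a median log2 fold change of 0.10, and leaving out 1 library gave from 3 to 9 higher. The interferon-inducible GTPase genes Tgtp1, which was 2803, 2485, 2566 and 2963 in young and 6957, 6604, 4959 and 5402 in old libraries (1.13 ± 0.13, adjusted p = 0.00071), and Tgtp2 (0.82 ± 0.14) are near-identical neighbours. Ly6c2, a surface protein gene of effector T cells, rose from between 112 and 179 to between 442 and 1109 (2.06 ± 0.28). Genes of MHC class I presentation summed to between 439259 and 521156 in young and between 608186 and 673832 in old libraries, and 1 of 20, the class Ib gene H2-Q7, was called. H2-Q7 was 3807, 3768, 3978 and 3359 in young and 5768, 5994, 5575 and 5077 in old libraries (0.59 ± 0.10, adjusted p = 0.0062), close to the fold threshold, and its call was lost without any of 3 libraries, where the fold change fell below 1.5. Its adjusted p in the 24-library model was 0.067. H2-K1, H2-D1 and B2m were higher in every old than in every young library but were not called (adjusted p = 0.12, 0.16 and 0.051), with log2 fold changes of 0.34, 0.30 and 0.72.

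None of 46 DNA replication genes and none of 50 mitosis genes was called with limma. At an unadjusted p under 0.05 there were 3 and 6, edgeR called 0 and 0, DESeq2 called 0 and 1, and the median log2 fold changes were -0.06 and 0.14. Cdkn1a, which encodes the CDK inhibitor p21, was 102, 106, 102 and 90.9 in young and 232, 488, 207 and 165 in old libraries. It did not overlap between the groups (1.31 ± 0.30, adjusted p = 0.03), and its call was lost when any of 5 libraries was left out, with adjusted p up to 0.083, and in the 24-library model (adjusted p = 0.21). It was the only higher gene among 39 p53 targets, beside 3.74% of all tested genes. The stress-induced Sesn1 (-1.20 ± 0.22, adjusted p = 0.0093) and Sesn2 (-1.04 ± 0.24, adjusted p = 0.089 in the 24-library model) were lower, beside 1.97% of all tested genes. Sesn1 was 4596, 6360, 5348 and 6695 in young and 2685, 1493, 3163 and 2929 in old libraries. Of 16 genes in the list of CDK inhibitors and the retinoblastoma family 3 were higher, namely Cdkn1a, Ccnd3 and Cdk6. Ccnd3, a D-type cyclin (1.12 ± 0.24), and its kinase Cdk6 (0.87 ± 0.19) were higher, and both calls were lost without young library 4 or old library 1. Myc and 3 genes of ribosome biogenesis and polyamine synthesis (Nop2, Mybbp1a and Srm) were lower out of 37, with a median of -0.32 over the list, and none of these 4 was called without young library 4. Nop2, Myc and Mybbp1a were not called in the 24-library model (adjusted p = 0.11, 0.096 and 0.074). Myc was 4036, 3441, 3065 and 3706 in young and 2665, 2590, 1864 and 1849 in old libraries (-0.68 ± 0.15, adjusted p = 0.024).

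Few genes of mitochondrial respiration were called. None of 45 complex I genes, none of 80 mitochondrial ribosomal protein genes and none of 12 mitochondrially encoded genes was called with limma, edgeR or DESeq2, and 4, 2 and 1 had an unadjusted limma p under 0.05. Their median log2 fold changes were 0.21, 0.14 and 0.31, and 0.09, 0.02 and 0.16 without old library 2. Of 45 genes of complexes II to V, only Cox10, which encodes an enzyme of haem A synthesis for cytochrome c oxidase, was higher, beside 3.74% of all tested genes. Cox10 was 729, 531, 704 and 735 in young and 1950, 3282, 1542 and 1473 in old libraries (1.54 ± 0.24, adjusted p = 0.0033), with no overlap. In glycolysis and hypoxia 1 of 29 genes was higher, Ero1a, an oxidase of the endoplasmic reticulum (1.26 ± 0.22), and Slc16a1 was lower. Over all tested genes 3.74% were higher and 1.97% lower. Of 27 genes of cholesterol and fatty acid synthesis limma and edgeR called 0 and DESeq2 called 1, with 7 at an unadjusted limma p under 0.05.

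Heat shock genes varied widely among old mice. Hspa1a, an inducible HSP70 gene, was 59.0, 9.68, 41.8 and 64.1 in young and 439, 2654, 2046 and 334 in old libraries, and its neighbour Hspa1b 212, 71.0, 240 and 518 and 1211, 6253, 6778 and 1326. Old libraries 2 and 3 were far above old libraries 1 and 4, and all 4 were above the young values (4.69 ± 0.74 and 3.78 ± 0.68, adjusted p = 0.0041 and 0.008). The copies are near-identical, and without young library 2 the fold change of Hspa1a was 4.10. Another called gene of the 36 in the heat shock and unfolded protein list was the chaperone gene Dnajc3 (0.61 ± 0.11), whose call was lost without young library 1 or old library 2. In the BCL2 family, 3 of 17 were higher and 1 lower. Bcl2a1a was 11.1, 14.5, 2.41 and 6.06 in young and 193, 177, 216 and 174 in old libraries (4.53 ± 0.45, adjusted p = 0.00039), and its copy Bcl2a1d rose by 1.35 ± 0.27, both being pro-survival genes of a multicopy locus with uncertain read assignment. The death gene Bik rose from between 51.1 and 87.6 to between 272 and 843 (2.63 ± 0.35), and Bcl2l1, which encodes BCL-xL, fell by 0.67 on the log2 scale (adjusted p = 0.014), a call lost without young library 3.

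The share of the most abundant T cell receptor V gene varied among the old libraries, and several genes of the gamma locus were higher in them. The most abundant beta V gene took between 11.3% and 12.5% of beta V reads in the young libraries, always Trbv3, and 18.2%, 48.2%, 24% and 13.4% in the old libraries, where it was Trbv4 in libraries 1 and 2 and Trbv1 in libraries 3 and 4. The means were 12.0% ± 0.65 (SD, n = 4) and 26% ± 15.5 (SD, n = 4). This measure was chosen after the values were seen, so it was not tested, and clones were not measured. For alpha V genes the shares were between 5.81% and 7.58% in young and 14.3%, 36.8%, 5.59% and 5.75% in old libraries, of which libraries 3 and 4 lay below the young range. The gamma chain genes, also examined after their values were seen, were higher in 5 and lower in none of 8. Trgc1 was 446, 441, 522 and 259 in young and 4377, 2646, 2763 and 2903 in old libraries (2.94 ± 0.23, adjusted p = 0.00013, and 0.079 in the 24-library model). Trgc2 was 438, 228, 518 and 273 and then 6621, 760, 3701 and 3810, with old library 2 lowest (3.07 ± 0.55, and 3.71 without that library), and Trgv2 was at most 73.9 in young and 983, 122, 635 and 718 in old libraries (3.34, and 4.00 without old library 2). In contrast, Trdc, the constant gene of the delta chain and defining for γδ T cells, was 187, 181, 192 and 183 in young and 104, 60.9, 169 and 167 in old libraries, all below the young values but not called (adjusted p = 0.25). The gamma constant genes are similar in sequence, so that their separate values are uncertain.

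Some transcripts of antibody-secreting cells were higher in old libraries. Jchain, the joining chain of secreted antibodies, was 18.9, 0, 0 and 9.53 in young and 296, 100, 164 and 423 in old libraries (5.82 ± 0.96, adjusted p = 0.0051, and 6.61 on the log2 scale without young library 1). Ighg1 was at 0, 1.61, 0 and 0 in young and 84.5, 33.1, 596 and 50.8 in old libraries. Without old library 3 its log2 fold change was 5.39 instead of 6.26, and in the 24-library model it was not called (adjusted p = 0.1). Neither gene overlapped between the groups. The IgM constant gene Ighm was between 40034 and 42862 in young and between 21778 and 56573 in old libraries (adjusted p = 0.88). The plasma cell marker list as a whole summed to between 8822 and 10744 in young and between 8138 and 10543 in old libraries, with 1 of 7 members, Jchain, called. The part of plasma cells in these values was not tested.

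In 76 genes all young libraries were below 10 and all old libraries at 10 or more, and 57 of them were called higher. The opposite held for 37 genes, of which 14 were called lower. All of these genes passed the filter only through the libraries of 1 age, and their groups are separate by definition. Their calls are therefore no separate support for an age difference. This also holds for Ighg1, Sox4, Ntn4, Tnfrsf21, Apol11a and Apol11b, which are described in other paragraphs. The genes of this kind described next were picked by their level. Smoc2, a matricellular protein gene, was 4.46, 0, 0 and 0 in young and 174, 3321, 308 and 180 in old libraries, so that its log2 fold change of 8.12 ± 0.93 dropped to 7.13 without old library 2. Slc22a4, the ergothioneine transporter, was at most 5.63 in young and 617, 2238, 457 and 141 in old libraries (7.80 ± 0.87, and 7.12 without old library 2). Epha3, an ephrin receptor, was at most 2.23 in young and 164, 259, 97.6 and 44.2 in old libraries, and Thsd7a was at most 1.11 in young and 196, 47.5, 154 and 167 in old ones. For 7 of the higher genes no read was found in any young library. Sncg, which encodes γ-synuclein, was 43.6, 85.7, 106 and 155 in old libraries, at least 36.2-fold higher than the 3 counts per library taken as the limit of a count of 0. Hs6st2, a heparan sulfate 6-O-sulfotransferase gene, was 46.3, 120, 65.3 and 35.1 (at least 24.8-fold higher). Among the genes nearly lost in old cells, Dapk1, a death-associated kinase gene, was 53.5, 83.1, 73.1 and 64.1 in young and 0.909, 0, 8.66 and 1.30 in old libraries (-4.75 ± 0.65, and -5.39 without old library 3).

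Apolipoprotein L genes rose together, in a cluster on chromosome 15. Of 7 tested, 5 were higher and none lower, and this count was the same whichever library was left out. Apol7e (chr15:77583057-77603485, GRCm39) was 1104, 1304, 1218 and 1197 in young and 5528, 6188, 4639 and 4104 in old libraries (2.07 ± 0.14, adjusted p = 5.9e-05). Apol10b was 108, 140, 169 and 183 and then 956, 1458, 705 and 742 (2.64 ± 0.25), and Apol7b between 89.1 and 208 and then 630, 1617, 737 and 648 (2.74 ± 0.34). Apol11b and Apol11a were rare, with at most 4.46 in young libraries and from 11.4 to 96.0 in old ones, and the log2 fold change of Apol11b moved from 4.97 to 5.58 without young library 1. Both are among the 5 higher genes and passed the filter only through the old libraries, so their calls are no separate support. Apol9a and Apol9b, interferon-inducible members of the same cluster, were not called (0.03 and -0.57). This family was examined after its values were seen, and the copies are similar, so that reads may have been split among them.

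**Figure D4:**
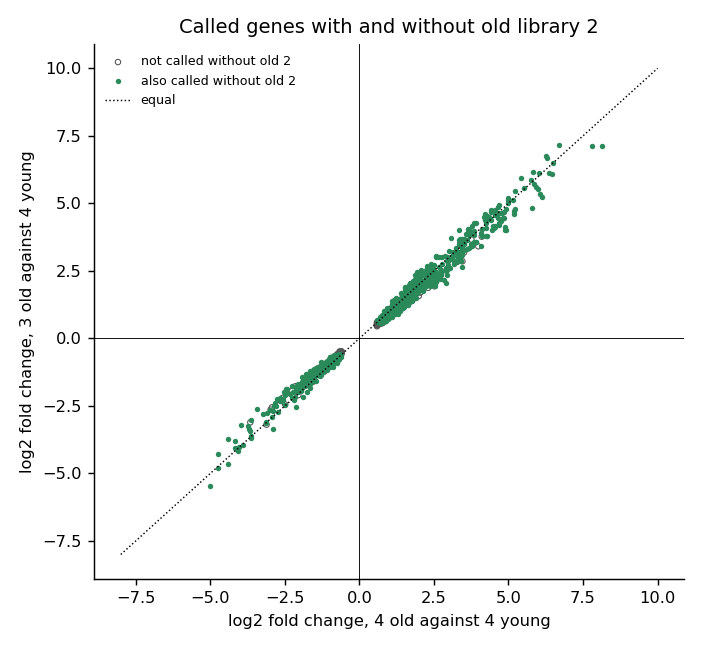
Log2 fold changes (old minus young) of the 837 called genes with all 8 libraries on the horizontal axis and without old library 2, the library with low Foxp3, on the vertical axis. Filled points are the 461 higher and 223 lower genes that were also called without it, open points those that were not, and the dotted line marks equal values, close to which most points lie.

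The age difference of aTreg cells was next set against that of rTreg and kTreg cells, in a model of all 24 libraries. The genes were those that passed the filter in the aTreg libraries, so genes that reached the minimum only in other subsets were not tested. Relative to rTreg cells it was higher in 83 genes (0.566%) and lower in 152 (1.04%), and relative to kTreg cells higher in 20 (0.136%) and lower in 7 (0.0477%). These counts depended on single mice. Relative to rTreg cells they were 28 and 27 without the old mouse 2, and between 4 and 115 and between 8 and 191 when any 1 mouse was left out, the lowest being those without the young mouse 3. Relative to kTreg cells they were 1 and 3 without the old mouse 2 and between 1 and 19 and between 2 and 11 without any 1 mouse.

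Genes whose rise was larger in aTreg than in rTreg cells were Cox10, which was between 608 and 837 in young and between 486 and 718 in old rTreg libraries (difference of 1.78, adjusted p = 0.0091), Trat1, a T cell receptor-associated adaptor gene (2.27), and Hs6st2, which was at 0 in all 8 rTreg libraries. Hs6st2 had no read in young aTreg libraries either and passed the filter only through the old aTreg libraries, which favours a larger rise there. In the opposite direction stood genes that rose with age in rTreg libraries. Il1rl1, which encodes the IL-33 receptor ST2, was between 132 and 209 in young and between 629 and 1249 in old rTreg libraries, and between 175 and 243 and between 139 and 257 in aTreg libraries (difference of -2.48, adjusted p = 0.00055). The chemokine gene Ccl4 was between 9.97 and 64.7 and between 1236 and 7644 in rTreg libraries, and between 50.1 and 85.2 and between 76.4 and 210 in aTreg libraries (-5.08, adjusted p = 0.0037). F13a1, a coagulation factor subunit gene, rose in rTreg libraries to between 589 and 1792 and fell in aTreg libraries from between 98.7 and 186 to between 7.23 and 44.9 (-6.00, adjusted p = 0.00048). All of these held without the old mouse 2, with adjusted p up to 0.025.

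Relative to kTreg cells, Igf2r, the mannose 6-phosphate receptor, was lower in old aTreg libraries (3356, 4385, 3343 and 3693 in young and 1186, 819, 1738 and 1641 in old ones) but between 791 and 1109 in young and between 1251 and 1613 in old kTreg libraries (difference of -2.0, adjusted p = 0.0018). Gm2a, a lysosomal lipid transfer protein gene, rose in aTreg libraries (a call lost without any of 4 libraries) from between 6044 and 6900 to between 8344 and 13233 and was in kTreg libraries between 14534 and 18511 in young and between 10170 and 10950 in old ones (1.26, adjusted p = 0.0022). Both differences held without the old mouse 2 (adjusted p = 0.0023 and 0.009). Eomes fell with age in aTreg cells and was between 0 and 25.1 in young and between 61.8 and 242 in old kTreg libraries (-5.98, adjusted p = 0.032), and this difference was lost without the old mouse 2 (adjusted p = 0.14). The same was true of Itm2a, Car11, Ero1a, Gpsm2, Gna15 and Sgk1, whose differences passed with all mice at an adjusted p of 0.032 and had adjusted p from 0.052 to 0.16 without it.

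**Figure D5:**
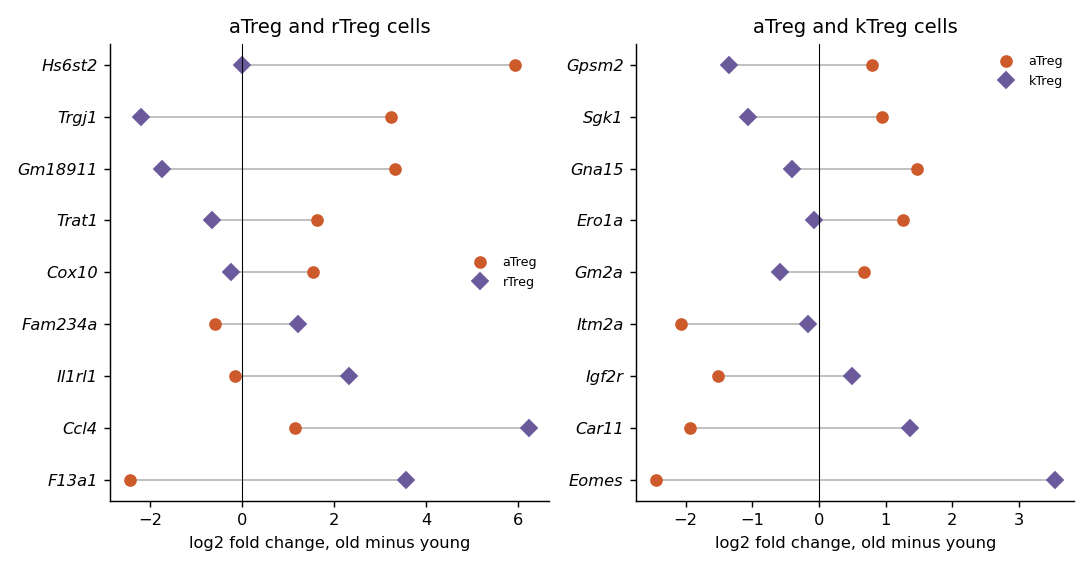
Log2 fold changes (old minus young) of the genes with the smallest p for a difference of the age effect, in aTreg cells (circles) and in rTreg (left) or kTreg cells (right, diamonds), joined by a line for each gene. F13a1 (left) and Eomes (right) fall in aTreg cells and rise in the other subset, Il1rl1 and Ccl4 rise in rTreg more than in aTreg cells, and Gm2a and Sgk1 lie on opposite sides of 0 in aTreg and kTreg cells.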

How the data were processed

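RNA of Treg subsets sorted from the spleen was measured by bulk RNA-seq in 24 libraries, of which the 8 aTreg libraries are compared here. Per the study's methods, SMART-Seq v4 libraries were sequenced as paired reads of 150 bases on a NovaSeq X Plus. The submitters' processing notes name HISAT2 2.2.1, SAMtools 1.13, HTSeq 1.99.2, DESeq2 1.44.0 and GRCm39. The deposited signal values are read counts that the authors divided by 1 size factor per library, so that differences in total RNA per cell are not kept. The reads of each listed gene summed to 100 or more across the 24 libraries, and the table held no column of another sample (0). Of 17464 identifiers 17353 were paired with a symbol.

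Values were in whole steps of 0.787 to 1.30 per read in the aTreg libraries, and 100% of them gave whole reads within 0.01 of a read. Genes with a value of 10 or more in at least 4 of the 8 libraries were tested with limma 3.58.1 (R 4.3.3) on log2(value + 1), and p-values were adjusted by the Benjamini-Hochberg method over all genes tested. Calls needed an adjusted p under 0.05 together with more than 1.5-fold change. Since design and methods allow a count model only for the recovered reads, edgeR 4.0.16 (quasi-likelihood) and DESeq2 1.42.0 were run on these as alternatives. Differences of the age effect between subsets were tested as interaction contrasts in a model of 6 groups. For genes at 0 in all young libraries a lower bound of the fold change was taken against 3 counts per library, which covers counting error only. Promoters came from the RefSeq table (GRCm38.p6) and were matched to GRCm39.

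The genes named are the 15 with the smallest p in each direction without overlap between groups (receptor, immunoglobulin and predicted genes left out), up to 4 called members of each list, the sorting markers with Foxp3 and Xist, and 5 genes per direction of each interaction. Xist was between 1386 and 3003 in all 8 libraries and was not called. Other genes were named after their values were seen. The comparison, the genes and the lists were chosen with earlier results of these data known. Young and old mice with the same number are different animals, and the correlations of their deviations from the group means lay between -0.15 and 0.00, so that the number was not used as a block. Subsets with the same number were taken to come from 1 mouse, which the labels do not state, and the deviations of same-numbered aTreg and rTreg or kTreg libraries correlated between -0.10 and 0.33 (consensus correlation 0.06 over the 24 libraries). Alternatives changed the pseudocount, filter, scaling, tool, weights, blocks and libraries. Cdkn2a, Il13, Cxcl1 and genes of the Y chromosome were not analysed here, and a few other genes that the rule names are not reported here although they count in the totals and lists.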

Additional observations from a re-analysis of the deposited data

Results flagged for a closer look

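In some genes 1 of the 4 libraries of a group stood far from the others, which chance alone does in about 1 in 20 groups. Among old libraries these were St6galnac1 in library 1 (1711), Trgc1 in library 1 (4377), Id3 in library 2 (1311), Il23r in library 2 (1519), Apol7b in library 2 (1617) and Apol11b in library 3 (96.0). Among young libraries they were Thsd7a in library 1 (1.11), Apol11b in library 1 (4.46), Klrg1 in library 1 (177), Cox10 in library 2 (531), Tmem176b in library 2 (2492) and Prss12 in library 4 (132, the others from 94.7 to 99.7). In young library 1 the value of 1 read was 1.11, so Thsd7a and Apol11b stood apart there by a few reads only. In young library 2 the summed markers of B cells (13020), of macrophages and monocytes (5072), of dendritic cells (47366) and of basophils and mast cells (973) stood apart from the other young libraries. Without young library 2, limma called 524 genes higher and 201 lower, and 191 of these lower genes were also called with all libraries. Without young library 3 or 4 the lower genes were 182 and 171. The part of such cells in the genes called lower in old cells was not tested further. Both Fcer1g and Kit, which are expressed by such cells and were called lower, were highest there (793 and 754). They were not called in the 24-library model (limma adjusted p = 0.41 and 0.44).

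Of the genes called by the interaction tests, which were more numerous as given above, 18 that are named here were flagged. Relative to rTreg cells the difference on the log2 scale was 5.93 for Hs6st2, 5.45 for Trgj1, 5.05 for the predicted gene Gm18911, 2.27 for Trat1 and 1.78 for Cox10. It was -6.00 for F13a1, -5.08 for Ccl4, -2.48 for Il1rl1 and -1.81 for Fam234a. Relative to kTreg cells it was 2.15 for Gpsm2, 2.00 for Sgk1, 1.88 for Gna15, 1.35 for Ero1a and 1.26 for Gm2a. In the other direction it was -5.98 for Eomes, -3.29 for Car11, -2.0 for Igf2r and -1.91 for Itm2a.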

How the results depend on the processing

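No gene was called in opposite directions under any alternative. Of the 150 called genes chosen by the naming rule or added families, 80 stayed called in every alternative, 70 were lost in 1 or more, and 0 reversed. With unadjusted p-values 1129 genes were higher and 806 lower, with the 6-group model 305 and 142, and with array weights 826 were higher. DESeq2 gave 793 higher and 517 lower genes, while edgeR gave 507 and 286. Leaving out 1 library gave from 328 to 557 higher and from 160 to 268 lower genes. For the differences relative to rTreg cells the ranges were 4 to 115 higher and 8 to 191 lower, and relative to kTreg cells 1 to 19 higher and 2 to 11 lower. The cause of these shifts was not tested.

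With the sample number as a replicate block 411 genes were higher and 169 lower, although the numbers do not pair old with young mice. With the mouse as a replicate block in the 6-group model the counts were 310 and 145, and the interaction counts were 114 and 202 relative to rTreg and 24 and 9 relative to kTreg cells.

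Alternatives chosen after seeing the data left out old library 2 with edgeR (533 higher, 245 lower) and DESeq2 (682 and 401), or both libraries numbered 2 with limma (697 and 256). With 4 mice a group, differences that miss the threshold are not shown to be absent, and values of a few reads are the least certain. The samples are different mice, and p-values measure the spread between them.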

Other observations

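Genes induced by T cell receptor signals were mixed. Of 37 genes of the immediate early and signal strength list, 1 was higher and 4 lower, beside 3.74% and 1.97% of all tested genes. The median log2 fold change of the list was 0.02. Nr4a1, which encodes NUR77, was 2910, 3362, 2538 and 2641 in young and 1020, 1009, 1557 and 1425 in old libraries (-1.21 ± 0.17, limma adjusted p = 0.0018). Dusp4, a phosphatase that limits MAP kinases, was between 389 and 593 and between 77.5 and 223 (-1.75 ± 0.32). Ier3, an early stress response gene, went the other way, from between 16.1 and 28.2 to between 82.7 and 159 (2.37 ± 0.32, not called in the 24-library model, adjusted p = 0.24). Myc and Nfkbid were the other lower members, neither of them called in the 24-library model (adjusted p = 0.096 and 0.095). Among the 3 genes, the groups did not overlap.

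Follicular genes were lower in 3 and higher in none of 14 tested. Bcl6, the factor of follicular T cells, was 309, 528, 387 and 463 in young and 214, 165, 275 and 243 in old libraries (-0.90 ± 0.22), and Tbc1d4 fell by 0.73 on the log2 scale. The calls of both were lost without any of 6 libraries and in the 24-library model (adjusted p = 0.86 and 0.21), and without old library 1 or young library 3 none of the 3 genes was lower. Of 19 checkpoint and exhaustion genes 3 were lower, namely Cd200, Eomes and Nr4a1. The inhibitory receptor genes Pdcd1, Lag3, Tigit and Havcr2 were not called (adjusted p = 0.97, 0.23, 0.36 and 0.47) and overlapped between the groups. In the TNF receptor family on T cells, 1 of 16 was higher, Cd40 (1.31 ± 0.25, lost without old library 1 and in the 24-library model, adjusted p = 0.72), and 3 were lower. The largest decrease there was that of Tnfrsf21, which encodes death receptor 6, from 17.8, 130, 29.7 and 78.8 to 0, 1.03, 4.72 and 0 (-4.75 ± 0.78, adjusted p = 0.0051, and 0.0504 in the 24-library model). Genes outside the naming rule were named after their values were seen.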
